A study of Mus musculus with 18 samples.

Results

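The genes described here are the mouse genes whose symbols begin with Kcn and a further letter, the family of names given to potassium channel subunits, their regulators and 1 antisense transcript. The rule took 95 of the 23359 gene symbols in the expression table. All 95 were found in the GENCODE M21 annotation of the GRCm38 genome, on 19 chromosomes. The RNA came from FACS-sorted cells of the main olfactory epithelium, where the olfactory sensory neurons (OSNs) of the nose lie. Mice of the Taar5 line carried Taar5-ires-Cre with the reporter L10-GFP, and those of the Taar6 line Taar6-ires-Cre with ZsGreen, so that Cre was driven by the transcript of a trace amine-associated receptor gene. At P11 to P14 per the labels, the Taar5 line gave 7 libraries of reporter-positive cells (Taar5+) and 9 of reporter-negative cells (control). At P16 to P17 the Taar6 line gave 1 Taar6+ library and 1 control, which makes 18 libraries in all. The controls thus carried the same Cre allele and reporter as the positive cells. The labels give the strain as C57BL/6, while the paper describes a mixed background and older ages in weeks. Reporter-negative cells are a mixture, mainly of OSNs with odorant receptors, and Taar5+ cells express several Taar genes, so neither sort is 1 cell type. Nothing says whether the libraries of a group came from separate mice, and p-values measure the spread between libraries, which may be technical.

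Potassium channels set the resting potential of a neuron and repolarise it after each action potential. In OSNs, odorants raise cyclic AMP and open cation and chloride channels, and voltage-gated and calcium-activated potassium channels then shape the spikes that travel to the olfactory bulb. A channel is built from pore-forming subunits, often together with auxiliary subunits that change its gating or its transport to the membrane. Voltage-gated pores (Kcna, Kcnb, Kcnc, Kcnd, Kcnh, Kcnq) open on depolarisation. Silent subunits (Kcnf, Kcng, Kcns, Kcnv) form no channel alone and join the Kcnb pores. Calcium-activated channels comprise the large-conductance pore Kcnma1 with its Kcnmb beta subunits and the small-conductance Kcnn pores. Inward rectifiers (Kcnj) and two-pore-domain leak channels (Kcnk) carry current near rest, the former also in epithelia and glia. Of the members, Kcnrg encodes a protein that interferes with channel assembly, Kcnq1ot1 is a noncoding RNA antisense to Kcnq1, and neither is a channel subunit.

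Values are TPM, the length-corrected share of a library's transcripts scaled to 1000000, so that levels of different genes can be set side by side. They keep no sequencing depth, and no counting error can be given. A gene at 0 is described as listed at 0, because the estimate itself may have failed. Rows above 0 ranged from 5939 to 17808 per library. Omp, the marker of mature OSNs, reached 3908 to 20070 TPM in the Taar5 line. Taar5 reached 47.0 to 347 TPM in Taar5+ libraries and 0 to 7.71 TPM in the 8 controls with usable Taar values. In control replicate 2, the 13 Taar values above 0 repeated those of control replicate 1, and 0 of its Kcn values did. That library also had the fewest rows above 0 and gland markers summing to 1629 TPM, against 606 TPM in Taar5+ replicate 5 and at most 130 TPM in the other 14 libraries of the line. Taar5+ replicate 5 had the most rows above 0, and its markers of sustentacular (supporting) cells summed to 8737 TPM, against 6325 TPM in control replicate 2 and at most 1833 TPM in the others. Gapdh, a gene of glycolysis that every cell uses, stood at 1.43 and 6.06 TPM in the Taar6 line and at 436 to 1222 TPM in the Taar5 line. Line, reporter, age, library and any difference in quantification cannot be told apart there. Only the 16 Taar5-line libraries were tested.

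The family was led by a few genes. The level of a gene was taken as the mean of the Taar5+ and control means. By it, 2 members reached 100 TPM, 20 lay between 10 and 100 TPM, 19 lay between 1 and 10 TPM and 54 lay under 1 TPM. The 10 members of highest level held 79.9% of the summed level of the family. A value above 0 was found in 91 members in at least 1 of the 18 libraries, and in 12 members in all 18. Kcna10, Kcnk15, Kcnt2 and Kcnv1 were listed at 0 in every library, and 29 members never reached 1 TPM in the Taar5 line. To be tested a gene had to reach 1 TPM in 7 or more Taar5-line libraries, which 36 members did and 59 did not. Of the 59, Kcnj5 had the highest level (5.12 TPM).

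Kcnmb3, a beta subunit of the large-conductance channel, had the highest level of the family (GRCm38 chr3:32471588-32492231, minus strand). It was the highest member in 15 of the 16 Taar5-line libraries. It ranged from 335 to 960.0 TPM in Taar5+ cells (median 741 TPM) and from 197 to 680.0 TPM in control cells (median 415 TPM). The groups overlapped, with 4 of 7 Taar5+ libraries above every control and 6 of 7 above the control median. Kcnc4, a voltage-gated pore of high threshold, followed (chr3:107438303-107459552, minus strand). It ranged from 127 to 266 TPM in Taar5+ cells (median 147 TPM) and from 12.3 to 321 TPM in control cells (median 113 TPM), the lowest value being that of control replicate 2. Kcnc4 exceeded Kcnmb3 only in control replicate 8. Kcnmb3 made up 39.4% ± 11.7 of the summed Kcn TPM in Taar5+ cells (SD, n = 7) and 31.5% ± 11.0 in control cells (SD, n = 9). Neither gene shared exons, or any 50-base stretch of transcript, with another annotated gene.

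**Figure D1:**
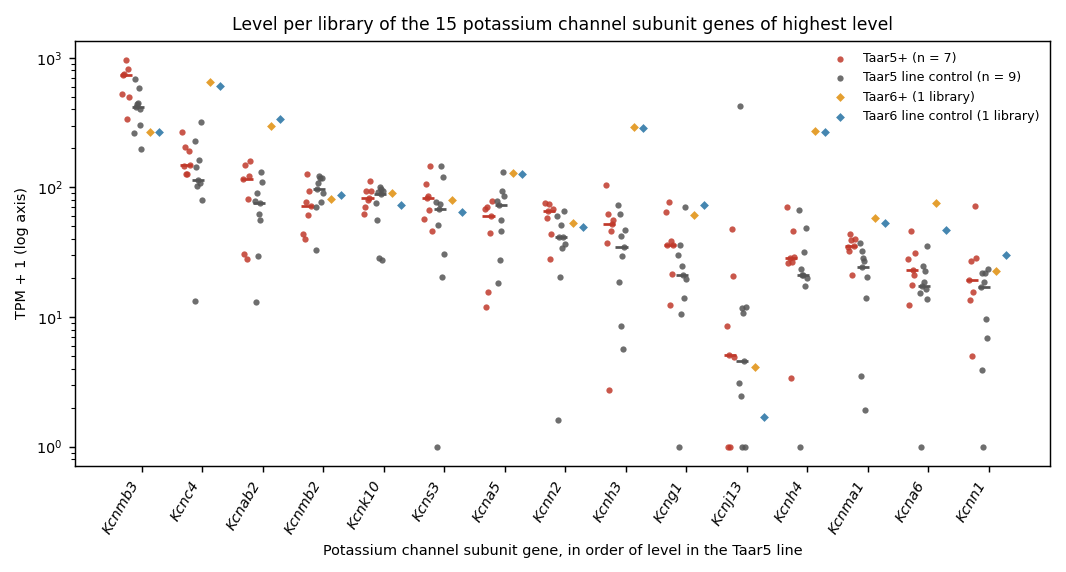
TPM + 1 on a log axis for the 15 members of highest level, 1 point per library, with short bars at the group medians of the 7 Taar5+ and 9 control libraries. Kcnmb3 leads in the Taar5 line, the groups overlap for each gene, and the 2 Taar6-line libraries (diamonds) sit close together, with Kcnc4 at 646 and 610 TPM above all 16 Taar5-line libraries.

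Below these 2 genes the order was loose. Kcnab2, a cytoplasmic beta subunit of Kcna channels, had a level of 84.0 TPM and exceeded Kcnmb2, another beta subunit of the large-conductance channel (82.1 TPM), in 8 of 16 libraries. Kcnmb2 in turn exceeded Kcnk10, a two-pore-domain leak channel (78.2 TPM), in 6 of 16. Kcnk10 exceeded Kcns3, a silent subunit (73.8 TPM), in 9 of 16. Kcns3 and Kcna5, a Shaker-type voltage-gated pore (57.9 TPM), were each the higher in 8 of 16. These neighbours therefore did not hold 1 order across libraries, whereas Kcnmb3 stood over Kcnc4 in 15 of 16 and Kcnc4 over Kcnab2 in 14 of 16. Kcnj13 took its place at 31.6 TPM from 1 library and was below the next gene, Kcnh4, in 14 of 16 libraries.

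The first comparison asked whether potassium channel genes differ between cells sorted for Taar5 and the other cells of the same epithelium. No member passed the test. With limma on log2(TPM + 1), 0 of 36 tested members had an adjusted p under 0.05, where 0.168% of the 12502 genes tested did. At an unadjusted p under 0.05 there were 2 members, Kcnmb3 and Kcnrg, where the share over all genes was 7.05%. The Taar5+ and control values failed to overlap for 0 of 36 members, against 0.144% of all genes. Differences are given as Taar5+ minus control, and on this scale they understate the change of low genes. The estimates lay above 0 for 23 members and below 0 for 13, with a median of 0.40, while over all tested genes 51.4% lay above 0 and the median was 0.02. These 36 are the members that passed the filter on low values. With no filter 88 members could be fitted, 43 above and 45 below 0, and their median was -0.0013. Leaving out 1 library at a time gave medians of 0.26 to 0.56 over the filtered members, the lowest without Taar5+ replicate 1 or control replicate 4. Without control replicate 2 the median of all tested genes moved from 0.02 to -0.17. Estimates of single members without that library, given below, are to be read beside this shift. Standard errors of the members ran from 0.26 to 1.11 with a median of 0.61, and adjusted p-values from 0.446 to 0.995. With array weights, by which limma lets deviating libraries count less, 5 members passed, Kcnmb3 and Kcna6 higher and Kcnip3, Kcnip4 and Kcnmb2 lower in Taar5+ cells, where 10.8% of all tested genes passed. Without control replicate 2 and Taar5+ replicate 5, Kcnmb3 alone passed among 34 tested members, where 2.83% of all genes did. In sorted bulk samples, fewer cells of a type and less RNA per cell cannot be told apart.

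**Figure D2:**
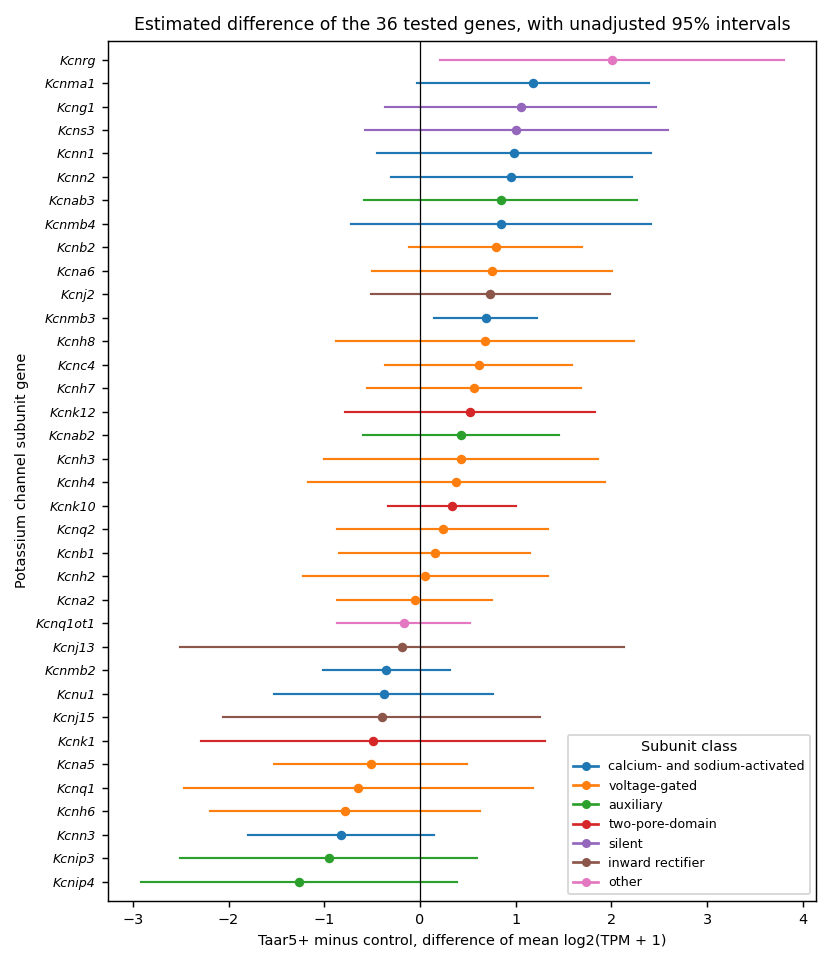
Estimated Taar5+ minus control difference of mean log2(TPM + 1) for the 36 tested members, with unadjusted 95% intervals, coloured by subunit class. Only the intervals of Kcnrg (0.21 to 3.81) and Kcnmb3 (0.15 to 1.22) leave out 0, and neither gene has an adjusted p under 0.05.

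Among the calcium- and sodium-activated class, 8 of 12 members were tested and 0 were called, with 5 estimates above 0, 3 below 0 and a median of 0.76. Kcnmb3 averaged 659.9 ± 215 TPM in Taar5+ and 414 ± 150.5 TPM in control cells (SD, n = 7 and 9). Its estimate was 0.68 (SE 0.26, limma adjusted p = 0.446), which is 1.61-fold with an unadjusted interval of 1.11 to 2.33. Without control replicate 2 and Taar5+ replicate 5 the estimate was 0.94 (adjusted p = 0.0263), and without control replicate 2 alone it was 0.78 (adjusted p = 0.140). Both libraries had raised markers of supporting or gland cells, and the part of these cells in the result was not tested.

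Kcnma1, the pore that Kcnmb subunits join, ranged from 20.1 to 42.7 TPM in Taar5+ cells (median 34.3 TPM) and from 0.928 to 35.98 TPM in control cells (median 23.2 TPM). Its estimate was 1.18 (SE 0.58, adjusted p = 0.734), and 3 of 7 Taar5+ libraries lay above every control. Its exons overlap those of a gene on the other strand, and whether reads were counted by strand is not stated. Kcnmb2, whose beta subunit inactivates the channel, ranged from 39.3 to 125 TPM in Taar5+ and from 31.7 to 121 TPM in control cells, with medians of 71.0 and 96.0 TPM. Its estimate was -0.35 (SE 0.32), opposite in sign to those of Kcnmb3 and Kcnma1.

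The small-conductance pores did not share a sign. Kcnn2 ranged from 26.9 to 74.4 TPM in Taar5+ cells (median 64.5 TPM) and from 0.594 to 64.7 TPM in control cells (median 40.3 TPM), with an estimate of 0.96 (SE 0.60, adjusted p = 0.888) and of 0.43 (SE 0.28) without control replicate 2. Kcnn1 had medians of 18.2 and 15.98 TPM, and its highest value of 70.7 TPM was in Taar5+ replicate 6. Kcnn3 ranged from 0 to 1.98 TPM in Taar5+ and from 0 to 5.59 TPM in control cells, with an estimate of -0.83 (SE 0.46, adjusted p = 0.845). For each of the 3 genes the Taar5+ and control values overlapped.

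Of the 30 voltage-gated pores, 14 were tested and 0 were called. Their estimates lay above 0 for 10 and below 0 for 4, with a median of 0.31 and a range from -0.79 to 0.79. Kcnc4 had an estimate of 0.61 (SE 0.47, adjusted p = 0.937). The estimate fell to 0.23 (SE 0.27) without control replicate 2, the library with 12.3 TPM. Kcna5 ranged from 11.0 to 77.8 TPM in Taar5+ and from 17.3 to 132 TPM in control cells, and Kcna6, of the same subfamily, from 11.4 to 44.8 and from 0 to 34.2 TPM. The estimate of Kcna6 was 0.75 (SE 0.60) as fitted and 0.90 with array weights (limma adjusted p = 0.0187). It was 0.27 (SE 0.33, limma adjusted p = 0.861) without control replicate 2, where Kcna6 was listed at 0. Kcna6 shares 38.8% of its 50-base transcript words with other genes, with the most matches to an opposite-strand gene, so its level is uncertain. Kcnb2, a delayed rectifier of low level, ranged from 0 to 5.49 TPM in Taar5+ cells (median 2.004 TPM) and from 0 to 2.004 TPM in control cells (median 0.312 TPM). Here 4 of 7 Taar5+ libraries exceeded every control, and the estimate was 0.79 (SE 0.43, adjusted p = 0.818). The lowest of these 4 was at 2.0044 TPM and the highest control at 2.0037 TPM, so the count rests on a near tie.

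The Kcnh family, relatives of the fly ether-a-go-go channel, was represented mainly by Kcnh3 and Kcnh4 of its Elk branch. Kcnh3 ranged from 1.75 to 103 TPM in Taar5+ and from 4.70 to 72.8 TPM in control cells, with medians of 51.1 and 33.4 TPM. Kcnh4 ranged from 2.38 to 69.7 and from 0 to 66.5 TPM, with medians of 27.4 and 20.3 TPM. Kcnh8, the other Elk gene, had medians of 8.0 and 5.55 TPM, and Kcnh6 of the Erg branch 6.44 and 14.7 TPM, with an estimate for Kcnh6 of -0.79 (SE 0.67, adjusted p = 0.947). With control replicate 4 left out that estimate moved to -1.22, and with Taar5+ replicate 4 left out to -0.43. Each of these genes overlapped between the groups.

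The silent subunits had 10 members, of which 2 were tested. Kcns3 ranged from 44.8 to 145 TPM in Taar5+ cells (median 81.6 TPM) and from 0 to 144 TPM in control cells (median 67.2 TPM), with an estimate of 1.01 (SE 0.76, adjusted p = 0.935). Kcng1 ranged from 11.4 to 75.5 TPM in Taar5+ cells (median 35.2 TPM) and from 0 to 69.8 TPM in control cells (median 20.3 TPM), with an estimate of 1.05 (SE 0.68, adjusted p = 0.904). Both were listed at 0 in 1 control, replicate 2, without which the estimates were 0.35 (SE 0.37) for Kcns3 and 0.54 (SE 0.43) for Kcng1. The other 8 members of the class had levels under 1 TPM.

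The auxiliary class (Kcnab, Kcnip and Kcne, without the Kcnmb beta subunits) comprised 12 members, 4 of them tested and 0 called. Kcnab2 ranged from 26.8 to 158 TPM in Taar5+ and from 12.1 to 131 TPM in control cells, with an estimate of 0.43 (SE 0.49, adjusted p = 0.956) and of 0.15 (SE 0.40) without control replicate 2. The Kcnip genes encode calcium-binding subunits of Kcnd channels, and Kcnip3 is also known as a transcriptional repressor. Kcnip4 ranged from 0.511 to 27.8 TPM in Taar5+ cells (median 10.9 TPM) and from 0 to 51.6 TPM in control cells (median 24.4 TPM). It had the lowest estimate of the family, -1.27 (SE 0.79, adjusted p = 0.883). The only control listed at 0 was replicate 2, and without it the estimate was -1.80 (adjusted p = 0.178). The other 8 controls began at 14.5 TPM, and 5 of 7 Taar5+ libraries lay below all 8. Kcnip3 had medians of 0.438 TPM in Taar5+ and 6.82 TPM in control cells, with an estimate of -0.95 (SE 0.74, adjusted p = 0.944). Kcnip2 stayed at or below 3.32 TPM in the Taar5 line and was not tested.

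Kcnrg had the highest estimate of the family, 2.01 (SE 0.86, adjusted p = 0.594). It ranged from 0.460 to 37.0 TPM in Taar5+ cells (median 19.2 TPM) and from 0 to 19.8 TPM in control cells (median 0.112 TPM). It was listed at 0 in 4 of 9 controls, while 3 of 7 Taar5+ libraries lay above every control. The estimate was 3.52 with a pseudocount of 0.1 and 0.75 with array weights, where Kcnk12 had the highest estimate of the family (1.11). The noncoding Kcnq1ot1 ranged from 0.278 to 1.96 and from 0 to 2.23 TPM, with an estimate of -0.17 (SE 0.33).

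Inward rectifiers and two-pore-domain channels were mostly low. Of 15 inward rectifiers, 1 had a level of at least 10 TPM and 3 were tested. The 1 was Kcnj13, through its value in control replicate 2, and its median over the 16 Taar5-line libraries was 3.97 TPM. Of 14 two-pore-domain genes, 2 had a level of at least 10 TPM and 3 were tested. None of the 6 was called. Kcnk10, of the mechanically gated branch, was at 61.9 to 111 TPM in Taar5+ and 26.6 to 99.2 TPM in control cells, with an estimate of 0.33 (SE 0.32, adjusted p = 0.954). Kcnj2, a strong inward rectifier, had medians of 6.85 and 2.91 TPM.

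For 2 inward rectifiers the highest value was that of control replicate 2. Kcnj13, an inward rectifier known from retinal pigment epithelium and choroid plexus, was at 424 TPM in control replicate 2, while the other 8 controls had 0 to 10.9 TPM. In Taar5+ cells it was at 46.9 TPM in replicate 5 and at most 19.8 TPM elsewhere. Its estimate was -0.19 (SE 1.11) with all libraries and 0.57 (SE 0.85) without control replicate 2. Kcnj13 shares 42.1% of its 50-base words with other genes. The most matches were to Gigyf2, which overlaps it on the other strand and was listed at 0 in control replicate 2. Kcnj15, another epithelial inward rectifier, was at 33.0 TPM in that control, at 20.99 TPM in control replicate 8 and at 9.71 TPM in Taar5+ replicate 5. In control replicate 8 the sustentacular and gland marker sums were 249 and 16.7 TPM.

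Taar5+ replicate 5 held the highest of 16 values for 16 of the 88 members with any value above 0 in the line. The following genes were chosen after their values were seen. Kcnk1, a weak leak channel, reached 66.5 TPM there against 33.1 TPM in the next library. Kcnj5, a subunit of G-protein-gated inward rectifiers, reached 39.7 TPM against 17.7 TPM. Kcnj5 ranged from 0 to 39.7 TPM in Taar5+ cells (median 4.73 TPM) and from 0 to 2.88 TPM in control cells, with 4 of 7 Taar5+ libraries above every control, and it failed the filter for testing. In the limma fit with no filter its estimate was 1.66 (SE 0.72, adjusted p = 0.793). Kcnn4, the intermediate-conductance calcium-activated channel, reached 16.7 TPM against 2.53 TPM.

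Kcnk2, a mechanically gated leak channel, reached 11.5 TPM there against 2.84 TPM in the next library. Kcnj16 reached 7.64 TPM against 1.97 TPM, and Kcnj1, known as a renal epithelial channel, 7.24 TPM while it was listed at 0 in the other 15. Kcne3, an auxiliary subunit of epithelial channels, reached 4.95 TPM against 2.53 TPM. In the same library the sustentacular, horizontal basal (181 TPM) and progenitor (120 TPM) marker sums were the highest of 16, and the gland (606 TPM) and pericyte (758 TPM) sums came next to those of control replicate 2. Of the pericyte sum 749 TPM was Rgs5, while Pdgfrb, Acta2 and Myh11 were at 1.67, 6.43 and 0.668 TPM. In control replicate 2 Rgs5 was at 3111 TPM and the other 3 were listed at 0. The part of other cells in these values was not tested.

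**Figure D3:**
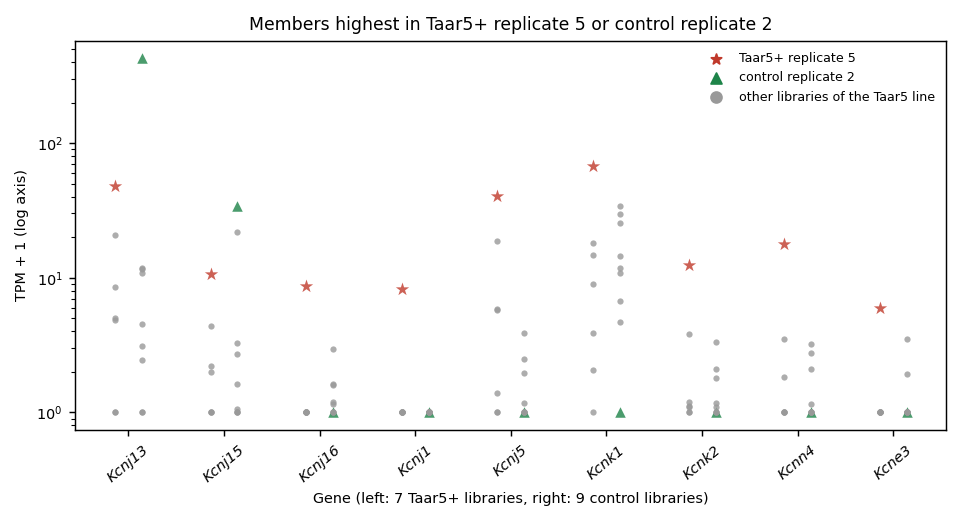
TPM + 1 on a log axis for 9 members in the 16 Taar5-line libraries, Taar5+ on the left and control on the right of each gene. Taar5+ replicate 5 (stars) is the highest Taar5+ library for each of the 9 genes, and control replicate 2 (triangles) stands at 424 TPM for Kcnj13 and 33.0 TPM for Kcnj15 but is listed at 0 for the others.

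By class, the calcium- and sodium-activated genes held 48.6% of the summed level, the voltage-gated pores 25.5%, auxiliary subunits 7.79%, silent subunits 7.19%, two-pore-domain channels 6.71%, inward rectifiers 3.32% and the 2 remaining genes 0.835%. The Kcnmb beta subunits were counted in the calcium- and sodium-activated class and not as auxiliary subunits. In that class Kcnmb3 alone had a level of 537 TPM, against 48.2 TPM for Kcnn2, its highest pore. Without control replicate 2 the share of the inward rectifiers was 1.64%, as their mean sum in control cells went from 65.8 to 15.6 TPM. The summed TPM of the calcium- and sodium-activated class was 863 ± 244 in Taar5+ and 588 ± 128 in control cells (SD, n = 7 and 9), and that of the voltage-gated class 395 ± 139.5 and 366 ± 158. Over the whole family the sums were 1662 ± 226 TPM, from 1365 to 2005, in Taar5+ cells and 1322 ± 209.8 TPM, from 1062 to 1630, in control cells. The ranges overlapped, and without Kcnmb3 the means were 1002 and 907 TPM. These sums are a description of the libraries and were not tested. In control replicate 2, 19 of the 36 tested members were listed at 0, against 0 to 10 in the other 15 libraries of the line.

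**Figure D4:**
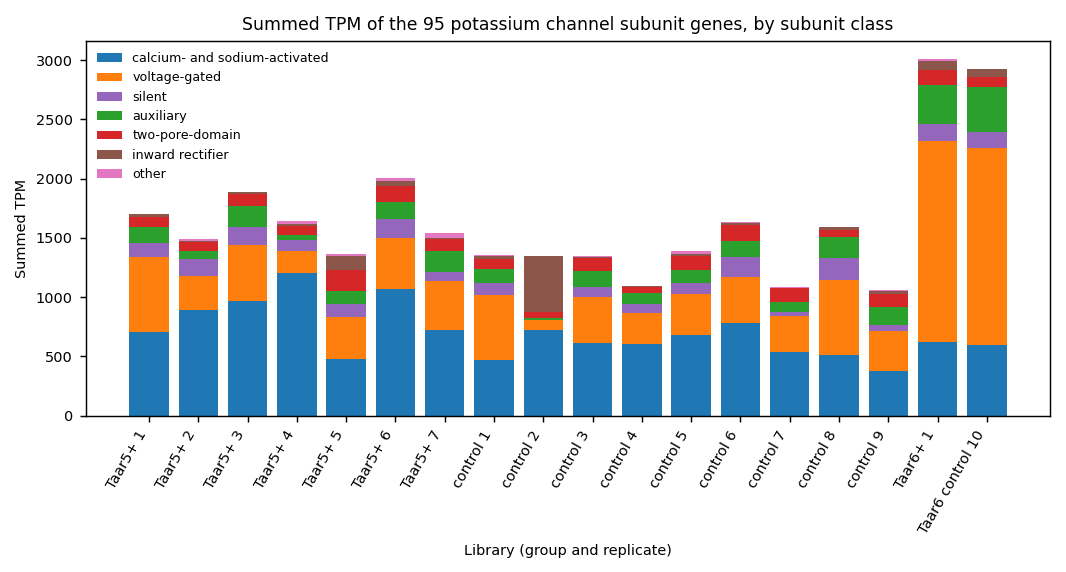
Summed TPM of the 95 members in each of the 18 libraries, stacked by subunit class. Taar5+ libraries reach 1365 to 2005 TPM and controls 1062 to 1630 TPM, control replicate 2 differs by its inward rectifier part, and the 2 Taar6-line libraries reach 3012 and 2927 TPM with a larger voltage-gated part.

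Subunits that are known to assemble were then set side by side per library, in pairs chosen after the values were seen. The 4 Kcnmb beta subunits together exceeded the Kcnma1 pore in 16 of 16 libraries, with a median ratio of 21.7. Silent subunits exceeded the Kcnb pores they join in 15 of 16 libraries, with a median ratio of 9.82, the exception being control replicate 2, where the silent sum was 0. The Kcnip sum exceeded the Kcnd sum in 15 of 16 libraries. Kcnd pores were listed at 0 in 8 of the 16 and at most 2.89 TPM in sum, while Kcnip genes reached 67.3 TPM. The Kcna pores and their Kcnab beta subunits were closer, with Kcna the higher in 11 of 16 and a median ratio of 1.11. All these ratios are of RNA in mixed cells, so they do not show how many subunits a channel or a cell holds. The pore genes of ATP-sensitive channels, Kcnj8 and Kcnj11, summed to at most 0.754 TPM, and their receptor subunits Abcc8 and Abcc9 to at most 0.919 TPM, in the Taar5 line.

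**Figure D5:**
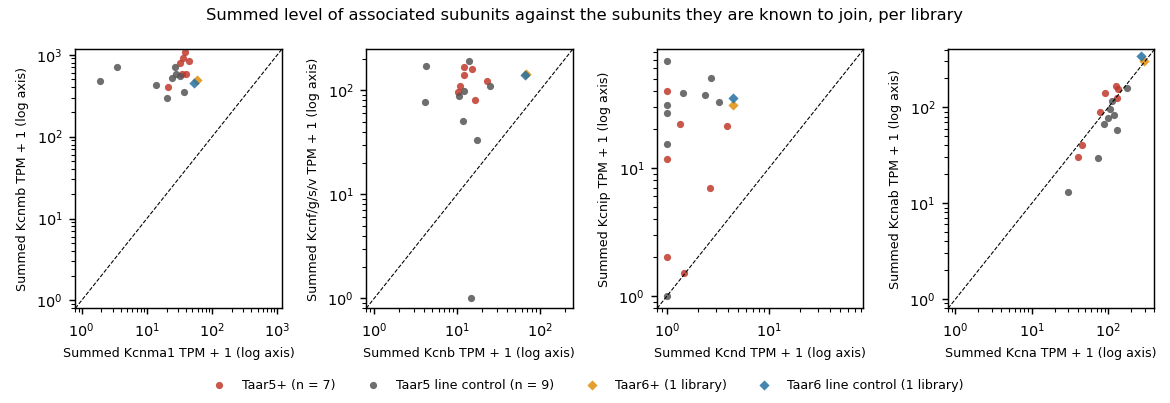
Summed TPM + 1 of associated subunits (vertical, log axis) against the pore subunits they are known to join (horizontal, log axis), 1 point per library, with the line of equal sums. Kcnmb lies above Kcnma1 in all 16 Taar5-line libraries, the silent and Kcnip sums lie above Kcnb and Kcnd in 15 of 16, and Kcnab lies near the line with Kcna.

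Other genes that assemble with potassium channels or move potassium across the membrane showed no call either. Of 22 such genes 13 were tested. In the limma fit 0 had an adjusted p under 0.05, where 0.168% of all tested genes did. An unadjusted p under 0.05 was found for 1, where the share over all genes was 7.05%. Atp1b1, the beta subunit of the sodium-potassium pump that maintains the gradient these channels use, had the highest level. It averaged 1857 ± 328 TPM in Taar5+ and 1445 ± 354 TPM in control cells (SD, n = 7 and 9), with an estimate of 0.39 (SE 0.17, adjusted p = 0.627). Other genes hold 15.8% of its 50-base words, with the most matches to Nme7. With array weights the estimate of Atp1b1 was 0.41 (limma adjusted p = 0.0309), in a fit where 10.8% of all tested genes passed. Without control replicate 2, which held its lowest value (746 TPM), the estimate was 0.27 (SE 0.14, limma adjusted p = 0.528). Dpp6 and Dpp10, further partners of Kcnd pores, summed to at most 0.830 TPM in the Taar5 line and to 1.65 and 1.93 TPM in the Taar6 line.

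In the Taar6 line each group had 1 library, so differences between Taar6+ and its control have no replicate check. Of 37 members with at least 5 TPM in 1 of the 2 libraries, 5 were at least 2-fold higher in Taar6+ on the log2(TPM + 1) scale, where 3.71% of all such genes were, and 3 were at least 2-fold lower, where 11.0% were. The higher members were Kcnj5 (13.1 against 1.74 TPM), Kcnrg (18.8 against 4.33 TPM), Kcnj15 (5.37 against 1.15 TPM), Kcnk2 (7.80 against 2.54 TPM) and Kcnk12, a two-pore-domain gene (12.8 against 5.16 TPM). The lower ones were Kcnip3 (1.09 against 8.01 TPM), Kcnn3 (2.26 against 7.21 TPM) and Kcnh6 (8.78 against 19.1 TPM). Kcnj5, Kcnj15 and Kcnk2 were also genes that reached their highest Taar5+ value in replicate 5, and the sustentacular marker sum was 1457 TPM in Taar6+ and 177 TPM in its control. The part of these cells was not tested.

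The most abundant members had close values in the 2 Taar6-line libraries. Kcnmb3 was at 266 TPM in Taar6+ and 265 TPM in its control, and Kcnc4 at 646 and 610 TPM, which made Kcnc4 the highest member in both. Both Taar6-line libraries lay above all 16 Taar5-line libraries for 12 of the 36 tested members, where 22.9% of all tested genes did, and below all 16 for 0, where 4.17% did. Of the 12, 8 were voltage-gated pores, a class that held 14 of the 36 tested members. Kcnh3 was at 290.0 and 289 TPM against at most 103 TPM in the Taar5 line, and Kcnh4 at 271 and 268 TPM against at most 69.7 TPM. Kcnmb4, a beta subunit known from neurons, was at 139 and 105 TPM against at most 17.2 TPM. It shares 30.7% of its 50-base words with other genes, with the most matches to an opposite-strand gene. Kcnab2 was at 294 and 335 TPM against at most 158 TPM. With 1 library a group, line, reporter, age, library preparation and quantification cannot be told apart. Gapdh was at 1.43 TPM in Taar6+ and 6.06 TPM in its control, against at least 436 TPM in the Taar5 line. Whether the TPM of both lines were made alike is not stated, so levels may not compare between the lines.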

How the data were processed

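Cells of the main olfactory epithelium were sorted on the reporter by FACS, and the sequencing libraries of the authors followed the Smart-seq2 protocol, in which cDNA is amplified by PCR without molecular identifiers. The submitters' processing notes name Trimmomatic 0.36, HISAT2 2.1.0 and Cufflinks 2.2.1, with the mm10 (GRCm38) genome. The deposited values are TPM, scaled to 1000000 per library. The annotation and how strand and multi-mapped reads were handled are not given in the sources used here. TPM keep no depth, so no counting error could be given and no count model was used. Unequal amplification or depth between libraries would move low values and zeros most.

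The 488 rows that repeat a symbol were summed with it, leaving 23359 symbols. 0 columns of other samples were present. Genes that reached 1 TPM in 7 or more of the 16 Taar5-line libraries entered a limma fit (version 3.58.1, R 4.3.3, lmFit and trended eBayes) of log2(TPM + 1). Its p-values were adjusted by Benjamini-Hochberg over all 12502 genes and read at a threshold of 0.05. The copied Taar values of control replicate 2 were treated as missing, in this fit and in all others. The script was tested on simulated data. Classes were assigned by symbol. Positions and 50-base words, compared on both strands, came from GENCODE M21. Descriptions and tables were made with Python 3.11.15.

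The members, lists and tests were chosen with earlier results of these data known. Named members are those with an adjusted p under 0.05, the 8 of lowest unadjusted p, the 15 of highest level, those whose groups do not overlap, the highest of each class, and up to 5 each way in the Taar6 line, while of the 22 partner genes the called ones and the highest are named. Further members are named to account for the family, as parts of a sum, or as chosen after their values were seen. The replicate numbers were checked for pairing. Same-numbered Taar5+ and control libraries correlated at -0.007 to 0.275 in their deviations from the group means, with 5 of 7 above 0.1. Pairing was taken only where all pairs exceeded 0.1, and the labels do not say that a number marks a shared batch, so the block was kept as an alternative. The alternatives tried were another pseudocount, filter, normalization, variance trend and library weighting, all 18 libraries, a replicate block, and libraries left out. The block-free fit on the same 14 libraries, and the libraries left out of the summed TPM and class shares, were chosen after seeing the data. The values of some genes are not reported here.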

Additional observations from a re-analysis of the deposited data

Results flagged for a closer look

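Dixon's test at the 95% level was run on 56 sets of TPM values. The sets were 27 named members and the sum of the whole family, in each group of the Taar5 line. In 9 of the 56 sets, 1 library stood far from the rest. In Taar5+ replicate 5 these were Kcnj13 (46.9 TPM, next library 19.8 TPM), Kcnj15 (9.71 TPM, next 3.38 TPM) and Kcnk2 (11.5 TPM, next 2.84 TPM). In control replicate 2 it was Kcnj13 (424 TPM, next 10.9 TPM). Kcnn1 stood at 70.7 TPM in Taar5+ replicate 6 (next 27.5 TPM) and Kcnip3 at 11.0 TPM in Taar5+ replicate 2 (next 4.45 TPM). Among controls, Kcng1 stood at 69.8 TPM in replicate 8 (next 34.7 TPM), Kcnk12 at 15.04 TPM in replicate 7 (next 4.11 TPM) and Kcnk2 at 2.35 TPM in replicate 5 (next 1.10 TPM). All 9 were high values. The test's rate by chance, about 1 in 20 sets or 2.8 of 56, holds only for independent, normally distributed values. TPM were used without a log scale, and some members were named for high values in these same libraries. The count of 9 can therefore not be set against 2.8, and no excess over chance is claimed.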

How the results depend on the processing

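The count of members with an adjusted p under 0.05 was 0 in the fit reported and in 25 of 27 alternatives. It was 5 with array weights and 1 without control replicate 2 and Taar5+ replicate 5 together, and 0 in each fit that left out 1 library. Partner genes passing numbered 2 with array weights and 0 otherwise. The fit with the replicate block called 0 members and 0 partners. Over all genes 13 had an adjusted p under 0.05 with it, against 16 in the same 14 libraries without it. At an unadjusted p under 0.05 there were 6 of 34 members with the block, beside 928 of all 11781 genes. Without the block there were 2 members, beside 641 of all genes. The block changed no call of a member or partner. The control that correlated best carried the same number for 3 of 7 Taar5+ libraries, a hint from the data, not the design. Over all genes, 21 passed as reported, 109 with quantile normalization, 1349 with array weights, 148 without control replicate 2, 66 without Taar5+ replicate 5 and 337 without both. The median estimate of all genes moved from 0.02 to -0.16 with array weights, -0.17 without control replicate 2 and -0.22 without both.

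Of 650 re-fitted estimates of 25 named genes, 633 kept their sign and side of the threshold, 7 came to pass it and 10 changed sign. Kcnj13 turned to 0.015 with quantile normalization, 0.17 with array weights and 0.057 without both libraries, and its estimate ran from -0.70 to 0.57 when 1 library was left out. Kcnh4 turned to -0.17 without both libraries and ran from -0.15 to 0.86. Array weights turned Kcnh8 to -0.16 and Kcnj15 to 0.26. The cause was not tested. Without Kcnmb3 the summed Kcn means were 1002 TPM (Taar5+) and 907 TPM (control). Unknown depth limits every low value.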
